A study of Mus musculus with 66 samples.

Results

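Newly made intron RNA of 337 of the 11513 measured genes fell within the first hour after MycER was activated in mouse fibroblasts, and its mean over 8 h, 12 h and 16 h was at least 0.9 times its starting level. These transient early fallers were chosen on introns of labelled RNA, with each library divided by its sum. Falls and rises in this report are thus relative to the other RNA of each library, and a change in total RNA output per cell would not be seen. The mean of the 6 libraries at 30 min and 1 h was at most 0.67 times the mean of the 3 libraries at 0 min. The mean of the 9 libraries at 8 h, 12 h and 16 h was at least 0.9 times it, and the deposited values at 0 min averaged at least 50. They were 3.29% of the 10233 genes at that level, which are called expressed genes here. Among the other expressed genes, 228 met the early condition and were still at or below 0.67 late, and these lasting fallers serve as a comparison.

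The cells were 3T9-MycER, a line of mouse embryonic fibroblasts with c-myc flox/flox alleles, infected in vitro with a retroviral pBabe construct for MycER, which also gave resistance to zeocin. In MycER, a hormone-binding domain of oestrogen receptor origin is joined to Myc, and the ligand 4-hydroxytamoxifen (OHT) switches the fusion protein on. Every group carried the floxed alleles and the construct and was grown without zeocin. The groups were cells at 0 min without OHT and cells in 400 nM OHT, sampled at 10 min, at 20 min, at 30 min, at 1 h and at 1.5 h, then at 2 h and 4 h, and last at 8 h, at 12 h and at 16 h. Each group had 3 libraries of labelled RNA and 3 of total RNA. Labelled RNA had taken up 4-thiouridine (4sU, 300 µM) for 10 min and was then biotinylated and bound to streptavidin. Because no course without OHT was analysed here, an effect of OHT or of handling that does not pass through MycER cannot be told apart from one that does.

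Introns are cut out of a transcript soon after they are made and are then degraded, so RNA read from introns follows recent transcription. Exon RNA in total RNA is mostly mature messenger RNA, whose level also depends on how long each message lasts. Myc binds DNA together with Max, often at the E-box CACGTG, and is known both to raise and to lower transcription of many genes.

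All 337 genes passed the filter on low values in the 4 tables of labelled and total introns and exons. Of 10 fibroblast markers, 8 were measured and each had at least 1 RPKM in total exons at 0 min, with Vim (vimentin) at 2220 RPKM. Of 5 endothelial markers only Pecam1 was measured, at 0.047 RPKM. Of 7 leukocyte markers 3 were measured, Ptprc at 0.0438, Itgam at 0.0215 and Cd68 at 2.25 RPKM. Of 4 neural markers 2 were measured, Nes at 86.8 and Tubb3 at 7.31 RPKM. No epithelial or muscle marker looked for was measured. Deposited sums per library ranged (in units of 1e6) from 31.28 to 39.26 for labelled introns, 11.62 to 14.12 for labelled exons, 10.65 to 13.01 for total introns and 46.5 to 52.72 for total exons. The deposited values are rescaled whole numbers and true read depth is unknown, so no interval that needs a number of reads is given.

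The values that chose the genes are given as a description. The mean at 30 min and 1 h was 0.621 of the 0 min mean for the median gene and lay between 0.451 and 0.67. The mean from 8 h to 16 h was 1.02 of the 0 min mean for the median gene and reached 2.9. The deepest early ratios belonged to Mgst3, a microsomal glutathione S-transferase, at 0.451 and Apobec2, a muscle-associated member of the cytidine deaminase family, at 0.452. Among those just inside the early threshold were Kxd1 at 0.6699 and Tsga10 at 0.6699. Just outside it were Pcbd2, which is above the threshold before rounding to 0.67, Herc3 at 0.6708 and Troap at 0.6709. Just inside the late threshold were Tmem170 at 0.9004, Fn3krp at 0.9011 and Dynlt1a at 0.9014, and just outside were Crocc at 0.8996, Tmem19 at 0.8996 and Ube2c at 0.8993. The deposited mean at 0 min was 50 for Psrc1, 50.3 for Slc40a1 and 51 for Slc27a3, just inside the minimum, and 49 for Ccdc181, 48.7 for Isl2 and 48.3 for Mpst, just outside it. With division by library sums the median expressed gene was at −0.10 at 30 min and 0.12 at 16 h on the log2 scale relative to 0 min, and with scaling by trimmed means at −0.01 and 0.02. With trimmed means the same thresholds took 169 genes.

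The chosen genes had lower levels than expressed genes in general. Their labelled intron values at 0 min had a median of 393, against 1170 over all expressed genes. In total exons at 0 min the median was 3.83 RPKM, with quartiles of 1.52 and 9.62, against 8.5 RPKM over all expressed genes. By role, 30 of the 337 belonged to the spindle, the kinetochore or chromosome segregation and 31 to DNA replication, repair or telomeres. A further 22 belonged to the primary cilium or its base, 18 were zinc finger factors by their symbol, 15 were mitochondrial, 13 acted in glycosylation or GPI anchor synthesis, 10 were matrix or secreted proteins and 8 were lysosomal or acidified vesicles. These roles were assigned after the genes were known and are used to order the description. The assignment is not complete, so the counts are not totals for each role.

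Promoters of 5 genes, 4 of them in the segregation group, are shown because repeated CCAAT boxes recurred in that group. In the slightly longer windows counted below, 15 of 24 segregation genes held a CCAAT match, 11 held at least 2 and 5 held at least 3. The 4 segregation promoters shown each hold at least 3, so they are not typical of the group. None of the 5 has an opposite-strand protein-coding start within 1000 bases upstream. Each is the 250 bases before the RefSeq start on GRCm38.p6, read 5′ to 3′ on the gene's strand. Capitals mark CCAAT on either strand (CCAAT or ATTGG), which is the motif bound by NF-Y, and TTTGAA on either strand (TTTGAA or TTCAAA), the letters of a cell cycle genes homology region (CHR). Top2a, DNA topoisomerase II alpha, is at chr11:99024190-99024439 on the minus strand and holds 6 CCAAT and 2 CHR-like matches.
Top2a: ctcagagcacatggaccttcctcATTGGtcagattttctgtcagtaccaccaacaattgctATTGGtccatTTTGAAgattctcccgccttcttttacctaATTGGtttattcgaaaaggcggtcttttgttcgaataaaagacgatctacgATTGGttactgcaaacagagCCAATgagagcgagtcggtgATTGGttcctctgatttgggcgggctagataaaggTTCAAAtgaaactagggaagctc
Ccnb2, cyclin B2, is at chr9:70421555-70421804 on the minus strand, and its 3 CCAAT matches start 87, 54 and 21 bases before the start site, 33 bases apart.
Ccnb2: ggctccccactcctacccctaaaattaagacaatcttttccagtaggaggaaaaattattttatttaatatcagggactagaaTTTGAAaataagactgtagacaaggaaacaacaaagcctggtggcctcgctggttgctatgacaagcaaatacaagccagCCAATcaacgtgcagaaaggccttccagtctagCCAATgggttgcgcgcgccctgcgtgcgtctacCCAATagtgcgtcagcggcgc
Mki67, the proliferation antigen Ki-67 that coats mitotic chromosomes, is at chr7:135716380-135716629 on the minus strand with 3 CCAAT and 2 CHR-like matches.
Mki67: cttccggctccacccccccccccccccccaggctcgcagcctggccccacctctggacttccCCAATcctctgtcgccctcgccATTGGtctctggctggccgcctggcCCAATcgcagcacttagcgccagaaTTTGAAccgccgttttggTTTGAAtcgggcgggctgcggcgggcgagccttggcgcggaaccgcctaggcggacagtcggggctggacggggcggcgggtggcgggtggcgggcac
Aspm, a spindle pole protein, is at chr1:139454523-139454772 on the plus strand with 3 CCAAT matches.
Aspm: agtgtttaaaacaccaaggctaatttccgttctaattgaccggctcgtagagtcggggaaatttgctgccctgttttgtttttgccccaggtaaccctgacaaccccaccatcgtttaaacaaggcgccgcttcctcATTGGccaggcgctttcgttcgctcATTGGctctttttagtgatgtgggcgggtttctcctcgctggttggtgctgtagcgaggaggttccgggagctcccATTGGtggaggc
Depdc1a, a protein with a DEP domain, is at chr3:159495183-159495432 on the plus strand with 1 CCAAT and 1 CHR-like match.
Depdc1a: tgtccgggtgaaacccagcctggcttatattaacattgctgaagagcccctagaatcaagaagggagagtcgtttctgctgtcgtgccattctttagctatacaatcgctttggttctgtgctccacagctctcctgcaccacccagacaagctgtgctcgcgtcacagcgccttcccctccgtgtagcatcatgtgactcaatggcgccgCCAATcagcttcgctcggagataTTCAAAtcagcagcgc

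Over RefSeq windows from 250 bases before to 50 after the start, 300 bases in all, CCAAT on either strand was present in 52.2% of the 268 transient early fallers with a window. The share was 43% of 179 lasting fallers and 38.9% of 8235 expressed genes. At least 2 matches were present in 24.3% of the transient early fallers, 14.5% of lasting fallers and 15.2% of expressed genes, and in 45.8% of the 24 segregation genes with a window. TTTGAA, searched on either strand after values had been seen, was present in 58.3% of these 24 genes, 22% of all transient early fallers, 11.2% of lasting fallers and 11.6% of expressed genes. The E2F letters TTTCCCG were present in 11.6% of the transient early fallers, 3.91% of lasting fallers and 6.44% of expressed genes. The E-box CACGTG was present in 6.72% of the transient early fallers, 3.35% of lasting fallers and 10.6% of expressed genes, and the GC box GGGCGG in 57.8%, 68.7% and 67.2% of the same groups. Over all 27025 genes with a window, expressed or not, the shares were 37.9% for CCAAT, 18.1% for TTTGAA and 3.5% for TTTCCCG. They were 7.24% for CACGTG and 35.9% for GGGCGG. Other motifs were searched as well and are not given here. A match in these windows is a description of letters and shows neither binding nor its absence.

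Intron RNA in total RNA fell early in most of these genes, in libraries that had no part in choosing them. On the log2 scale the median gene was at −0.25 at 20 min, −0.45 at 30 min, −0.56 at 1 h, −0.40 at 1.5 h, −0.32 at 4 h, −0.21 at 8 h and 0.05 at 16 h, relative to 0 min. In bulk RNA, fewer cells that express a gene and less RNA per cell cannot be told apart. With limma, 201 of 337 genes (59.6%) were lower at 30 min than at 0 min at an adjusted p under 0.05, where 12.3% of all tested genes were called lower. None was higher at an adjusted or an unadjusted p under 0.05, against 15% of all tested genes called higher. At 1 h 239 (70.9%) were lower, against 20.5% of all tested genes, and 1 was higher, against 20.1%. At 4 h 141 (41.8%) were still lower than at 0 min, against 20.1% of all tested genes, and 1 was higher, Serpini1, against 19.8%. Between 1 h and 16 h the direction turned: 254 (75.4%) were higher at 16 h than at 1 h, against 19.9% of all tested genes, and 1 was lower, against 19.2%. The total RNA libraries are separate libraries, but the labels do not say whether a labelled and a total library of the same number came from the same culture, nor that replicates came from separate cultures, so p-values measure the spread between libraries.

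**Figure D1:**
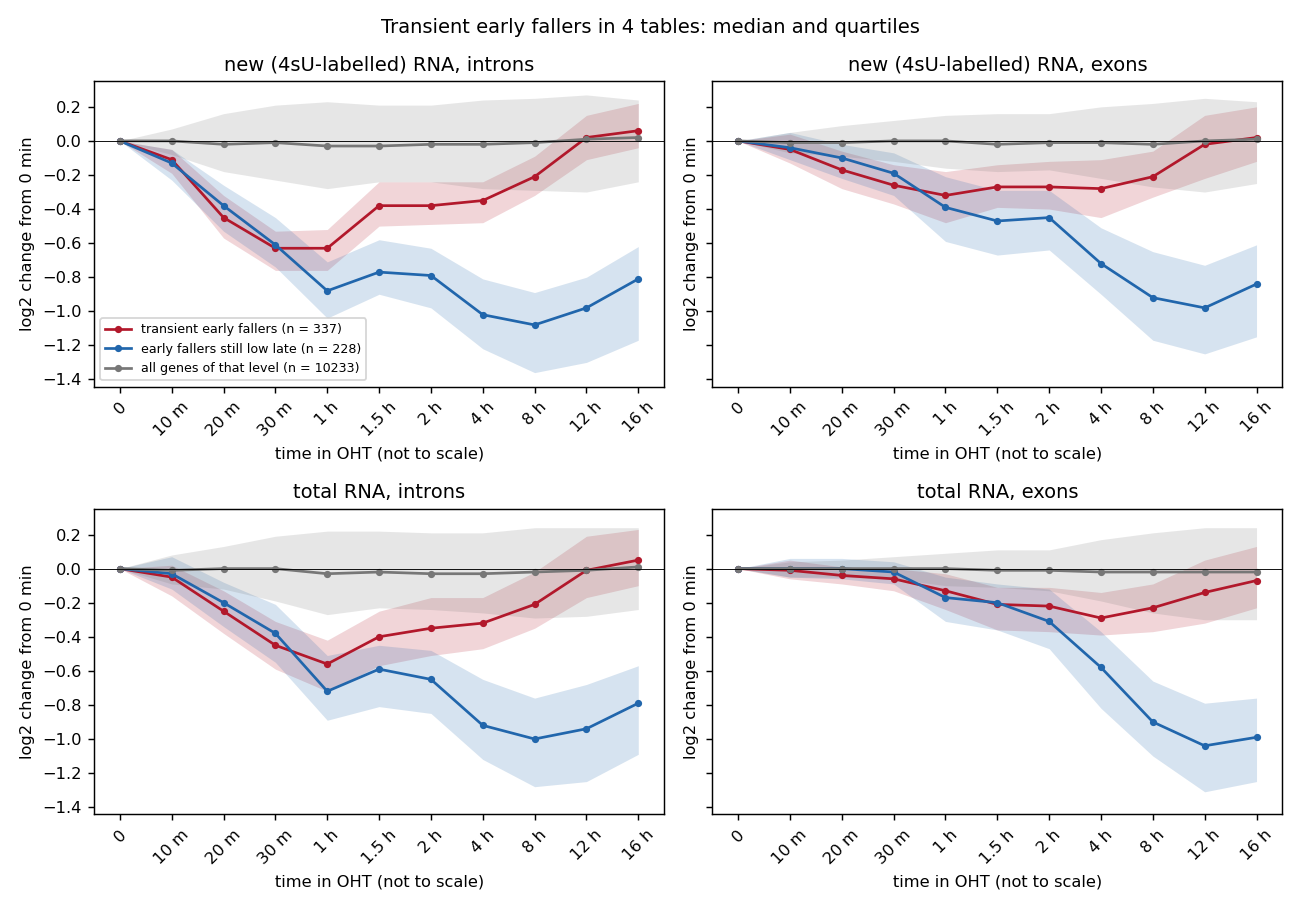
Median log2 change from 0 min (lines) and quartiles (bands) for the 337 transient early fallers, the 228 lasting fallers and the 10233 expressed genes, in introns and exons of new and total RNA, over time in OHT. The transient early fallers reached −0.56 at 1 h in total introns and were at 0.05 at 16 h, while the lasting fallers were at −0.72 and −0.79 at those times. The choice of the groups separated them by their late labelled introns.

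The lasting fallers followed a different course in the same libraries. Labelled introns from 8 h to 16 h separated them from the transient early fallers by choice. The late difference in total introns is thus a description and not separate evidence. Their median in total introns was −0.38 at 30 min, −0.72 at 1 h, −0.92 at 4 h and −0.79 at 16 h. With limma, 78 of the 228 (34.2%) were called lower at 30 min, 170 (74.6%) at 1 h and 191 (83.8%) at 4 h. All tested genes were called lower in 12.3%, 20.5% and 20.1%. Of the transient early fallers, 137 had a total intron mean of at least 0.9 times 0 min at 8 h, 248 at 12 h and 280 at 16 h. Shares over all genes were not computed for these counts. The lowest total intron mean of the transient early fallers fell at 1 h for 167, at 30 min for 76 and at 1.5 h for 41.

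**Figure D2:**
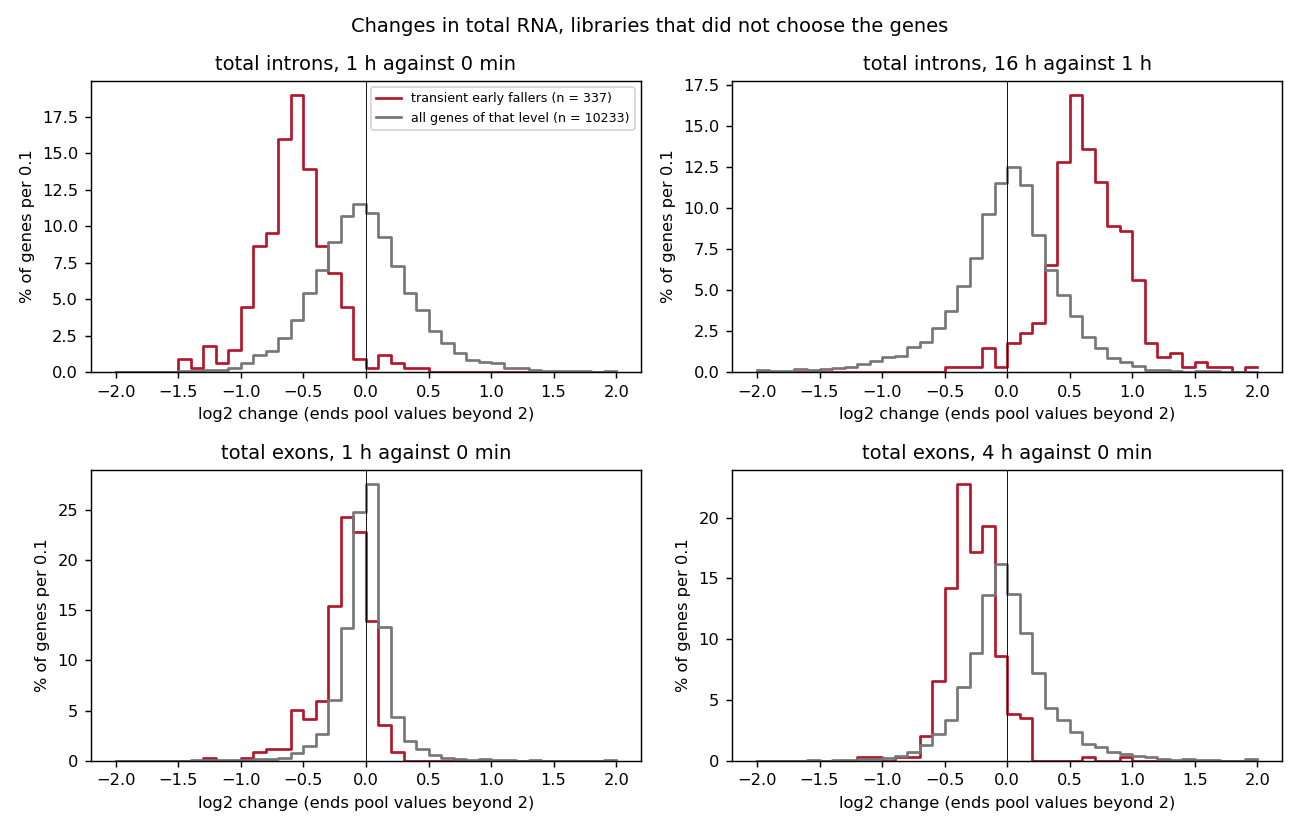
Distribution of log2 changes in total RNA (percent of genes per 0.1) for the 337 transient early fallers and the 10233 expressed genes. In total introns the transient early fallers centre on −0.56 for 1 h against 0 min and on 0.62 for 16 h against 1 h, and in total exons on −0.13 for 1 h and −0.29 for 4 h against 0 min.

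Mki67 (chr7:142881471-142908062, mm9, minus strand) had total intron values of 798, 841 and 754 at 1 h, against 1466, 1360 and 1389 at 0 min. All 3 libraries at 1 h were below all 3 at 0 min, and the change was −0.82 ± 0.07 (log2 ± SE; limma adjusted p 1.94e-11). At 16 h its values were 1247, 1247 and 1167, all above the libraries at 1 h.

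Prr11 (chr11:86902655-86922210, mm9, minus strand), a proline-rich protein, had total intron values of 324, 292 and 280 at 1 h, against 576, 662 and 666 at 0 min. The groups did not overlap, with a change of −1.08 ± 0.09 (limma adjusted p 3.44e-11). At 4 h the values were 321, 326 and 338, still −0.94 ± 0.09 from 0 min (limma adjusted p 7.87e-10), and at 16 h they were 539, 537 and 523.

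Brca1 (chr11:101350078-101413269, mm9, minus strand), which acts in repair of double-strand breaks by homologous recombination, ended above its start. Its total introns were 762, 806 and 626 at 1 h, against 1197, 1156 and 1137 at 0 min, a change of −0.68 ± 0.08 (limma adjusted p 5.1e-08). At 16 h they were 1361, 1510 and 1329, against 762, 806 and 626 at 1 h, a change of 0.94 ± 0.08 (limma adjusted p 9.69e-11), and every library at 16 h was above every library at 0 min. C2cd3, a centriole protein needed for cilia, and Ska1, a kinetochore protein that binds microtubules, each rose by 1.06 ± 0.10 between 1 h and 16 h (limma adjusted p 3.26e-10 for C2cd3 and 4.3e-10 for Ska1).

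**Figure D3:**
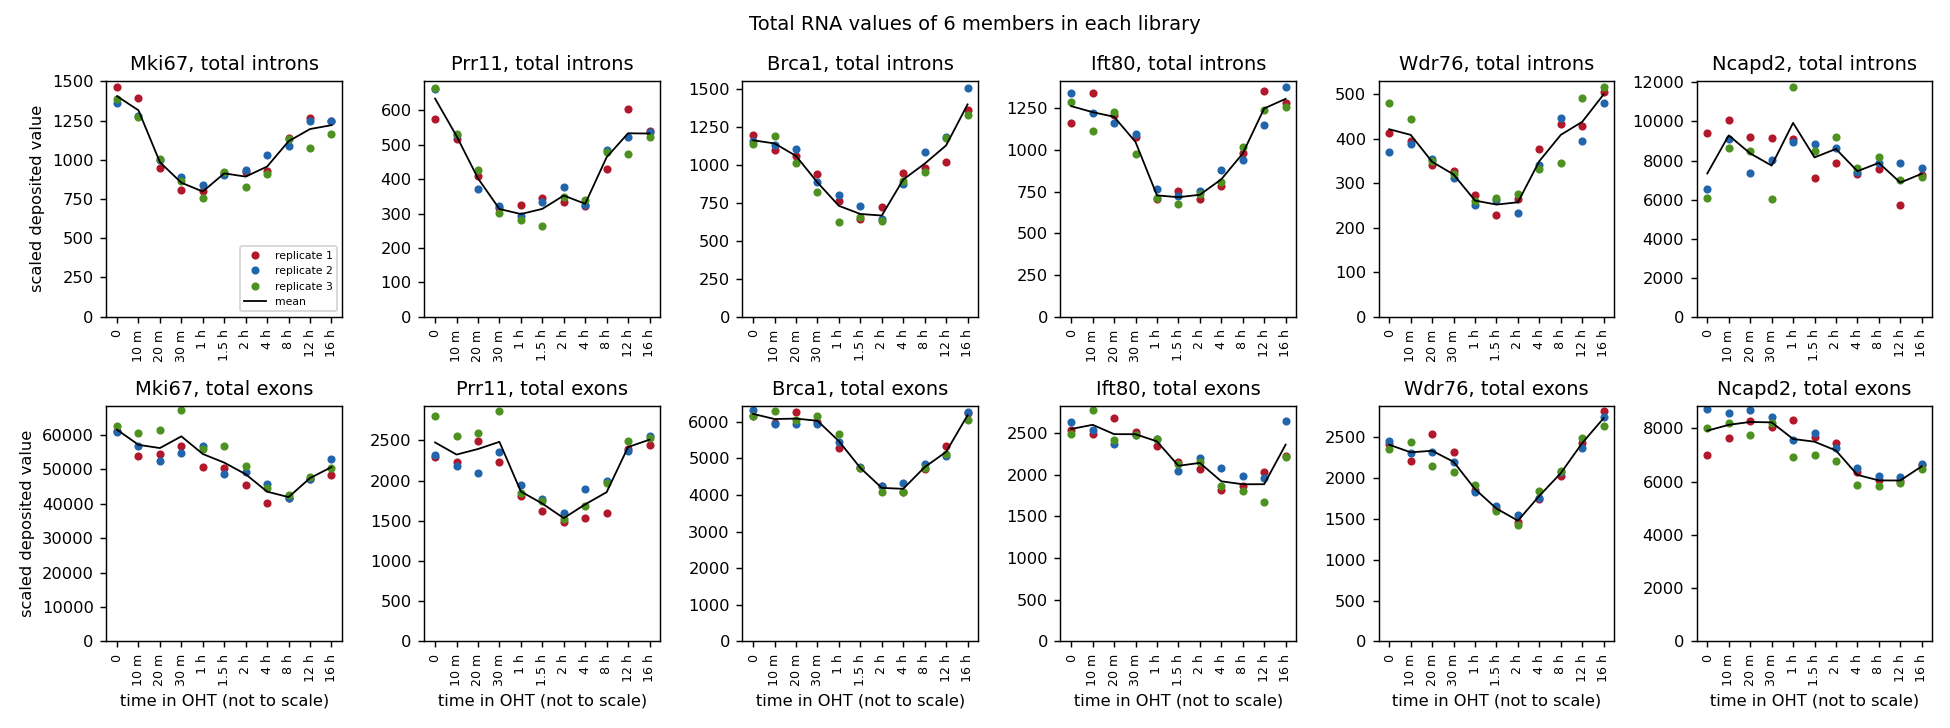
Scaled deposited values of 6 genes in total introns (upper row) and total exons (lower row) over time in OHT, with each of the 3 libraries per time as a point and their mean as a line. Mki67, Prr11, Brca1, Ift80 and Wdr76 have their intron minimum between 1 h and 2 h and their exon minimum between 2 h and 12 h, whereas Ncapd2 introns have no early minimum.

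Against 0 min, 2 genes were called against the direction of the rest in total introns. Ncapd2, a subunit of condensin I, was higher in total introns at 1 h (9084, 8931 and 11770, against 9418, 6522 and 6073 at 0 min; 0.45 ± 0.14, limma adjusted p 0.00764), and the groups overlapped. Without replicate 3 at 0 min or at 1 h the rise was not called (0.33 and 0.32). Its labelled introns held 1389, 1234 and 1210 at 1 h, against 2103, 1963 and 2248 at 0 min and are among the values that chose it. At 0 min its total intron values were thus above its labelled ones, although total intron libraries had smaller sums. Mki67 and Brca1 had labelled intron means of 3950 and 3592 at 0 min, above their total intron values. What RNA the total intron values of Ncapd2 hold was not tested. Serpini1, which encodes the secreted protease inhibitor neuroserpin, was higher in total introns at 4 h (57.5, 72.9 and 51.8, against 38.9, 41.9 and 37.6 at 0 min; 0.60 ± 0.22, limma adjusted p 0.0326), a low level at which the call was lost without replicate 1 or 3 of 0 min or replicate 1 or 2 of 4 h (0.46 to 0.63).

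The time of the fall differed with gene span. Spans on mm9 were found for 331 of the 337 genes, with a median of 22.7 kb and quartiles of 12.6 and 41.5 kb, against a median of 27.4 kb with quartiles of 12.8 and 62.2 kb over expressed genes. Spans over 100 kb made up 6.65% of the transient early fallers, against 14.7% of expressed genes. In total introns the 62 genes under 10 kb had a median of −0.51 at 30 min and −0.48 at 1 h. The 145 genes of 10 to 30 kb had −0.48 and −0.58, the 102 genes of 30 to 100 kb had −0.43 and −0.59, and the 22 genes over 100 kb had −0.27 and −0.63 at the same times.

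The lowest total intron mean was reached by 30 min in 51.6% of genes under 10 kb, 31% of those of 10 to 30 kb, 12.7% of those of 30 to 100 kb and none of the 22 over 100 kb. The comparison of 1 h with 30 min was added after this pattern was seen. With limma, 37 transient early fallers (11%) were lower at 1 h than at 30 min in total introns, where 6.66% of all tested genes were called lower, and 1 was higher, against 3.56% (Napb, 0.40 ± 0.13, limma adjusted p 0.0383). The later fall was more frequent among the lasting fallers, with 54 of 228 (23.7%) lower and 0 higher. Their median change was −0.30, against −0.10 for the transient early fallers. None of the 37 spanned under 10 kb, 5 spanned 10 to 30 kb, 24 spanned 30 to 100 kb and 8 spanned over 100 kb. Calls were also fewer among short genes at 1 h against 0 min. There 27 of 62 genes under 10 kb were lower (median −0.48), and 92 of 102 genes of 30 to 100 kb (median −0.59). Shares by span over all genes were not computed, so whether the pattern is particular to the transient early fallers was not tested. The count of transient early fallers lower at 1 h than at 30 min was 13 without replicate 3 at 1 h, 16 without replicate 2 at 30 min and 24 without replicate 1 at 1 h. Across the 331 genes, Spearman's rho between span and the change from 30 min to 1 h was −0.47 in total introns and −0.30 among genes of at most 30 kb. In the labelled introns that chose the genes it was −0.33, and −0.05 among genes of at most 30 kb. These are descriptions over genes that share the same libraries.

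**Figure D4:**
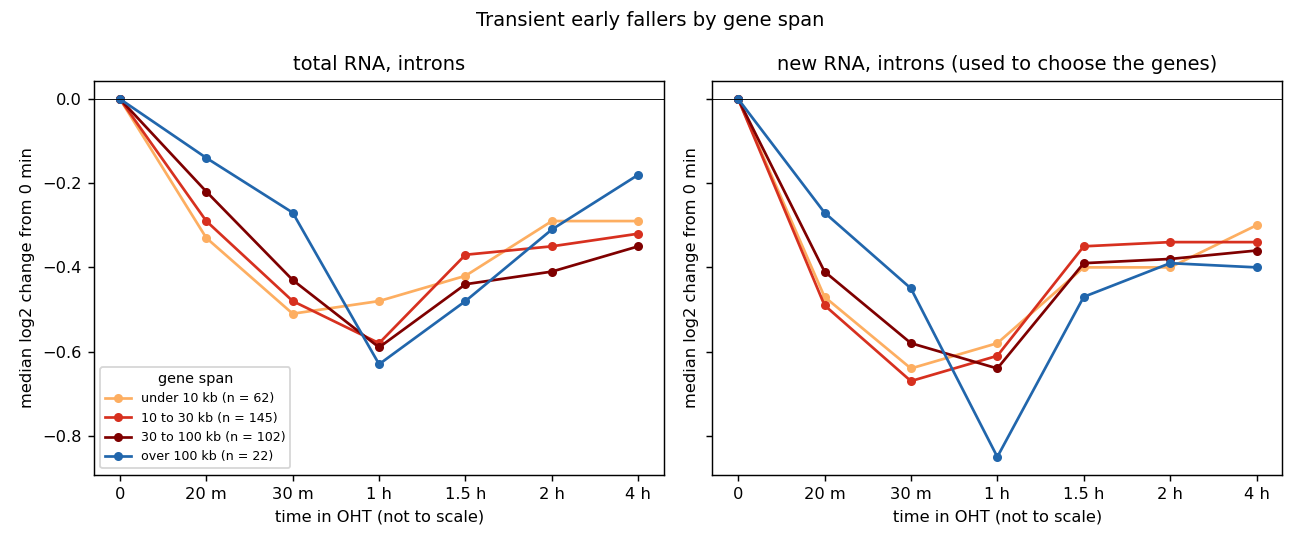
Median log2 change from 0 min in total introns (left) and in the labelled introns that chose the genes (right), by gene span, over time in OHT. Genes under 10 kb are at −0.51 at 30 min and −0.48 at 1 h in total introns, and genes over 100 kb are at −0.27 and −0.63.

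Ift80 (chr3:68696421-68808492, mm9, minus strand), an intraflagellar transport protein that spans 112 kb, showed the late step in each library. Its total introns were 1158, 1339 and 1288 at 0 min, 1075, 1093 and 973 at 30 min and 705, 767 and 709 at 1 h. The change between 30 min and 1 h was −0.52 ± 0.07 (limma adjusted p 2.84e-05), and the libraries did not overlap. Zranb3, a DNA translocase that acts at stalled replication forks and spans 149 kb, had 475, 447 and 421 at 1 h, against 666, 720 and 772 at 30 min (−0.68 ± 0.11, limma adjusted p 0.000196). Its 30 min libraries overlapped those at 0 min, which held 602, 714 and 749. Mki67, with a span of 26.6 kb, had 798, 841 and 754 at 1 h, against 806, 890 and 865 at 30 min, and these libraries overlapped.

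In labelled libraries that took no part in the choice, many of the genes were also lower at 1.5 h than at 10 min. At 1.5 h 130 genes (38.6%) were lower in labelled introns than at 10 min with limma, where 19.9% of all tested genes were called lower, and the median change was −0.25. The single gene called higher, against 21.7% of all tested genes, Smim20 (0.35 ± 0.11, limma adjusted p 0.0117), was not called without replicate 1 at 1.5 h or replicate 3 at 10 min. Of the 130 genes, 114 (87.7%) were among the 239 that were lower in total introns at 1 h, and they were 47.7% of those 239. The 239 were 70.9% of all 337 genes, so a large part of this overlap would arise at that share alone. Ift80 held 2155, 2121 and 2228 in labelled introns at 1.5 h, against 4051, 3930 and 4052 at 10 min, a change of −0.89 ± 0.06 (limma adjusted p 7.83e-14) with no overlap. In labelled exons 84 genes (24.9%) were lower at 1.5 h than at 10 min, against 9.98% of all tested genes. Znrd1as was the 1 gene called higher, against 14.4% of all tested genes, and its call was lost under both other scalings and without any of 4 libraries.

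From 1.5 h to 4 h few genes moved in new RNA. In labelled introns 26 (7.72%) were higher at 4 h, where 5.72% of all tested genes were called higher, and 10 (2.97%) were lower, where 8.95% were called lower. The median change was 0.02. The higher genes numbered 15 without replicate 3 at 1.5 h, 16 without replicate 2 at 4 h and 17 with no further scaling. Of the 26 genes, 9 belonged to the replication and repair group of 31. Wdr76, a WD-repeat protein, had 1299, 1360 and 1328 in labelled introns at 4 h, against 949, 961 and 993 at 1.5 h (0.46 ± 0.07, limma adjusted p 6.48e-05). Brca1 had 2795, 3117 and 3056 at 4 h, against 2286, 2273 and 2336 at 1.5 h (0.38 ± 0.06, limma adjusted p 6.87e-05). In both genes the groups did not overlap. Cenpf, a kinetochore protein of dividing cells, moved the other way in labelled introns (−0.34 ± 0.07, limma adjusted p 0.000782).

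Labelled exons had 5 genes lower (Cenpf, Aspm, Nbr1, Mki67 and Mtmr6) and 4 higher (Slc27a3, Rad54l, Wdr76 and Nfya) at 4 h than at 1.5 h, against 3.36% lower and 2.6% higher of all tested genes. With replicate numbers as a block 6 genes were higher and 7 were lower. The higher genes numbered 1 without replicate 3 at 1.5 h, and 2 without replicate 2 or replicate 3 at 4 h. The lower genes numbered 0 without replicate 3 at 1.5 h, with no further scaling or on RPKM, 1 without replicate 2 at 4 h, 3 without replicate 1 at 4 h and 8 without replicate 2 at 1.5 h.

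Exon RNA in total RNA, mostly mature message, fell later and by less. The median gene was at −0.06 at 30 min, −0.13 at 1 h, −0.22 at 2 h, −0.29 at 4 h, −0.23 at 8 h, −0.14 at 12 h and −0.07 at 16 h. At 1 h 52 genes (15.4%) were lower than at 0 min with limma, where 3.66% of all tested genes were called lower. None was higher at an adjusted or an unadjusted p under 0.05, against 5.08% of all tested genes called higher. The count of lower genes was 26 without replicate 3 at 0 min and 33 without replicate 1 or replicate 2 at 1 h. At 4 h 165 (49%) were lower, where 19.9% of all tested genes were called lower, and 1 was higher, against 19.5%. That gene, Sbspon, had values of 20, 19.8 and 23.7 at 4 h, against 16.4, 8.14 and 8.8 at 0 min, and its call was lost under both other scalings. The lowest total exon mean was at 4 h for 91 genes, at 12 h for 57, at 2 h for 54, at 1.5 h for 41, at 8 h for 37 and at 1 h for 26.

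Between 1 h and 16 h the mature messages split. With limma, 95 genes (28.2%) were higher at 16 h than at 1 h, where 26.1% of all tested genes were called higher, and 48 (14.2%) were lower, where 27.9% were called lower. The count of higher genes is thus near that over all genes. Among the lasting fallers, which were chosen for low labelled introns late, 191 of 228 were lower and none was higher.

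Brca1 exon values fell by 4 h and overlapped the 0 min values at 16 h. In total exons they were 4083, 4337 and 4091 at 4 h, against 6164, 6330 and 6161 at 0 min, a change of −0.58 ± 0.04 (limma adjusted p 1.56e-12). At 16 h they were 6238, 6257 and 6050. Cdc45, a subunit of the replicative helicase, had 2224, 2146 and 2356 at 4 h, against 3428, 3205 and 3263 at 0 min (−0.56 ± 0.05, limma adjusted p 3.61e-10). The span of Cdc45 overlaps another protein-coding gene, and whether counting used strand is not given in the sources used here.

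Ccnb2 exon values at 16 h were still below all those at 0 min. Its total exon values were 2229, 2207 and 2240 at 4 h, against 3312, 3188 and 3280 at 0 min (−0.55 ± 0.05, limma adjusted p 4e-10). At 16 h they were 2265, 2186 and 2044, against 2872, 2910 and 3089 at 1 h (−0.45 ± 0.05, limma adjusted p 9.42e-09), while its total introns at 16 h were 399, 430 and 345, against 258, 244 and 232 at 1 h. Atp6v1a, a subunit of the vacuolar proton pump, had total exons of 5193, 5307 and 5136 at 16 h, against 6746, 6932 and 6673 at 1 h (−0.38 ± 0.04, limma adjusted p 5.2e-09). Eci2, an isomerase of fatty acid oxidation, had 1787, 1759 and 1573 at 16 h, against 2526, 2536 and 2423 at 1 h (−0.55 ± 0.07, limma adjusted p 4.55e-08). In these 3 genes the exon groups did not overlap.

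Zinc finger genes had the lowest median exon change at 1 h of the 8 role groups. Of the 18, 12 were lower in total exons at 1 h and 11 were higher at 16 h than at 1 h, against 3.66% and 26.1% of all tested genes, with none in the other direction in either comparison. Their median total exon change was −0.42 at 1 h, −0.52 at 1.5 h and −0.24 at 4 h, against −0.13, −0.21 and −0.29 over all 337. Zfp128 had 99.7, 108 and 121 in total exons at 1 h, against 197, 235 and 219 at 0 min (−0.98 ± 0.15, limma adjusted p 5.2e-05). Zik1 had 1185, 1170 and 1108 at 1 h, against 1773, 1598 and 1699 at 0 min (−0.55 ± 0.08, limma adjusted p 2.08e-05). Neither gene's groups overlapped. Zinc finger genes include near-identical copies whose reads the counting could have divided, so single values are uncertain.

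Exon changes at 1 h differed with the ratio of total to labelled exon RNA at 10 min, a rough measure of how much message a cell holds per unit of new RNA. The log2 ratio, set to 0 at the median of expressed genes, had a median of −0.22 for the zinc finger genes, 0.24 for the segregation genes and 0.39 for the lysosomal genes. Over 334 genes with a value, Spearman's rho with the total exon change at 1 h was 0.40 and Pearson's r 0.38, a description across genes. Of the 111 genes with ratios under −0.28, 23 (20.7%) were lower in total exons at 1 h, against 8 (7.14%) of the 112 with ratios over 0.36. Over expressed genes in the same ranges the shares were 5.45% and 1.68%, so the order is not particular to the transient early fallers. From 1 h to 16 h 49 (44.1%) of the 111 were higher and 4 were lower, against 13 (11.6%) higher and 36 (32.1%) lower of the 112. Over expressed genes in the same ranges, 25.8% were higher and 21.2% lower at low ratios, and 25.2% higher and 38% lower at high ratios.

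Of the 30 transient early fallers with a role in chromosome segregation, 26 were lower in total introns at 30 min, 25 at 1 h and 23 at 4 h, and 27 were higher at 16 h than at 1 h. All tested genes were called in these directions in 12.3%, 20.5%, 20.1% and 19.9%. These genes were chosen for such a course in labelled introns, so the counts do not describe segregation genes in general. Ncapd2, described above, was the gene called higher at 1 h and lower at 16 h. Total exons were lower in 4 of the 30 at 1 h and in 26 at 4 h, against 3.66% and 19.9% of all tested genes, with a median of −0.33 at 4 h. Top2a introns in total RNA were 3064, 2813 and 2380 at 30 min, against 4467, 4698 and 4256 at 0 min (−0.71 ± 0.07, limma adjusted p 5.23e-09). Its total exons were 46930, 46980 and 50460 at 4 h, against 66290, 65850 and 67760 at 0 min, again with no overlap. Aurka, a kinase of spindle poles, had total introns of 467, 432 and 424 at 30 min, against 661, 714 and 752 at 0 min (−0.68 ± 0.08, limma adjusted p 7.05e-08). Aspm, whose promoter is shown above, had 608, 587 and 555 at 30 min, against 937, 963 and 877 at 0 min (−0.67 ± 0.08, limma adjusted p 1.63e-07). Prc1, which bundles microtubules of the central spindle, had total exons of 8961, 8695 and 8905 at 4 h, against 12720, 12310 and 12670 at 0 min (−0.50 ± 0.05, limma adjusted p 3.9e-09). In each of these the groups did not overlap.

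A list of 30 mitosis genes held genes outside the rule as well. Of its 28 measured genes 10 were transient early fallers, namely Ccnb2, Cdca2, Aurka, Cenpf, Kif2c, Kif23, Top2a, Ncapd2, Prc1 and Mki67. Of the 18 that were not chosen, 13 were lower in total introns at 30 min, where 12.3% of all tested genes were called lower, and 12 at 1 h, against 20.5%. At 16 h 16 of the 18 were higher than at 1 h, against 19.9% of all tested genes, and in total exons 12 were lower at 4 h, also against 19.9%. Their median total intron change was −0.30 at 1 h, against −0.58 for the 10 chosen genes. Bub1, a checkpoint kinase with an early ratio of 0.696 that left it outside the rule, fell by 0.48 on the log2 scale in total introns at 1 h (SE 0.07, limma adjusted p 2.39e-06). Cenpe, a kinetochore motor, missed the late condition with a ratio of 0.888 and had a total intron change of −1.04 ± 0.07 at 1 h (limma adjusted p 1.77e-13). Bub1b, Birc5 and Cdc20 were not called in total introns at 30 min or 1 h, with changes between −0.13 and 0.15. This list had been studied in these data before and is not independent evidence of direction. The other 16 lists looked at, each with 10 to 22 measured genes and among them immediate early genes, clock genes, p53 targets and sterol synthesis, held no transient early faller. Transient early fallers were 3.29% of expressed genes, so a single list of that size would hold few or none at that share.

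Of the 31 transient early fallers with a role in DNA replication, repair or telomeres, 28 were lower in total introns at 1 h and 30 were higher at 16 h than at 1 h, against 20.5% and 19.9% of all tested genes. They too were chosen for this course in labelled introns. In total exons 12 were lower at 1 h, 23 were lower at 4 h, and between 1 h and 16 h 15 were higher and 3 were lower. The shares over all tested genes were 3.66% and 19.9% lower, and 26.1% higher and 27.9% lower between 1 h and 16 h. Mbd4, a glycosylase of G:T mismatches, had total exons of 484, 430 and 419 at 1 h, against 623, 705 and 672 at 0 min (−0.59 ± 0.10, limma adjusted p 0.000124), and 799, 954 and 836 at 16 h, which is 0.96 ± 0.10 above 1 h (limma adjusted p 2.37e-09). Xrcc1, a scaffold of single-strand break repair, had 1923, 1845 and 1726 at 16 h, against 1267, 1253 and 1345 at 1 h (0.51 ± 0.06, limma adjusted p 7.29e-08). Both genes had non-overlapping groups and ended above their values at 0 min. Parpbp, an inhibitor of homologous recombination, had total introns of 811, 817 and 737 at 1 h, against 1322, 1437 and 1386 at 0 min (−0.81 ± 0.07, limma adjusted p 7.17e-11), and its span overlaps another protein-coding gene.

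The primary cilium group of 22 had 18 genes lower in total introns at 1 h, 17 lower in labelled introns at 1.5 h than at 10 min, and 13 lower in total exons at 4 h, against 20.5%, 19.9% and 19.9% of all tested genes. Over all 337 transient early fallers the shares were 70.9%, 38.6% and 49%. The genes of this and the following groups were chosen for this course in labelled introns, so the counts do not describe such genes in general. The 13 glycosylation and GPI anchor genes had 9 lower in total introns at 1 h and 6 lower in total exons at 4 h, near the 70.9% and 49% over all 337. Of the 15 mitochondrial genes 10 were lower in total introns at 1 h, and of the 10 matrix and secreted proteins 7, also near 70.9%. In the 10 matrix and secreted proteins total exons were lower in none at 1 h and in 1 at 4 h, against 3.66% and 19.9% of all tested genes. Col3a1, a fibrillar collagen chain, had total introns of 381, 415 and 426 at 1 h, against 624, 599 and 693 at 0 min, and its total exons overlapped, with 12830, 12720 and 11610 at 1 h against 10170, 13870 and 12620 at 0 min. Of the 8 lysosomal genes 6 were lower in total introns at 1 h, again near 70.9%, and in total exons 3 were lower and 1 was higher at 16 h than at 1 h. With 27.9% of all tested genes lower and 26.1% higher in that comparison, these exon counts in 8 genes are near the shares over all genes or below them.

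**Figure D5:**
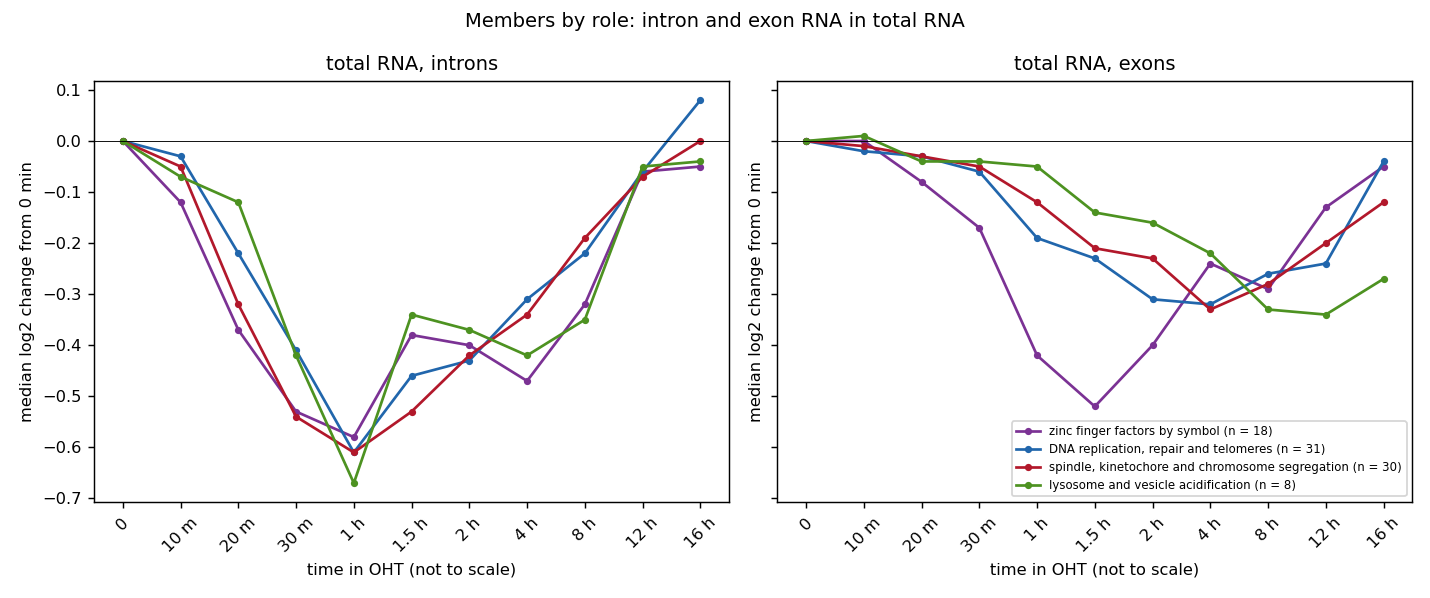
Median log2 change from 0 min in total introns (left) and total exons (right) over time in OHT for 4 role groups of transient early fallers. In introns the medians lie between −0.58 and −0.67 at 1 h, and in exons the zinc finger genes are at −0.52 at 1.5 h, below the other groups, while the lysosomal genes are at −0.27 at 16 h.

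The NF-Y subunits Nfya and Nfyb were among the genes, and the subunit Nfyc was not. Nfya, the subunit that contacts CCAAT, had total introns of 751, 762 and 769 at 1 h, against 1118, 1154 and 1319 at 0 min (−0.65 ± 0.10, limma adjusted p 1.55e-06), with no overlap. Its total exons were 1444, 1462 and 1261 at 1 h, against 1832, 1838 and 2444 at 0 min, which was not called (−0.54 ± 0.18, limma adjusted p 0.0637). Nfyb, a histone-fold subunit named after its values were seen, had total introns of 280, 230 and 282 at 1 h, against 392, 375 and 417 at 0 min (−0.58 ± 0.10, limma adjusted p 1.9e-05). No value here bears on NF-Y protein or its binding.

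A neighbour's start close upstream on the opposite strand was more frequent than over expressed genes. On mm9, 70 of the 331 placed genes (21.1%) had an opposite-strand protein-coding start within 1000 bases upstream, against 8.07% of lasting fallers and 12% of expressed genes. Of the 64 such partners that were expressed, 8 were transient early fallers themselves, in the pairs Nfya and Oard1, Brca1 and Nbr1, Psmd10 and Atg4a, and Cby1 and Fam227a. Each of these pairs is counted from both of its genes. With these 8 included, 12 of the 64 partners met the early condition, and the median early ratio of the 64 was 0.827. Of expressed genes, 3.29% were transient early fallers and 2.23% were lasting fallers. A further 3.23% met the early condition and lay between both thresholds late. Nbr1, an autophagy receptor that starts beside Brca1 at chr11:101413463 on the plus strand of mm9, had total exons of 4382, 4901 and 4610 at 4 h, against 6483, 6865 and 6470 at 0 min (−0.51 ± 0.05, limma adjusted p 4.58e-10). The pair then differed in direction, since from 1.5 h to 4 h labelled introns of Nbr1 changed by −0.27 ± 0.08 (limma adjusted p 0.0204) and those of Brca1 by 0.38 ± 0.06 as given above. Reads near such neighbouring starts cannot be assigned by strand from what the sources used here give, and the difference between the partners was not itself tested.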

How the data were processed

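The authors deposited 8 tables of 11513 genes, exons and introns of labelled and total RNA each as a table named counts and one of RPKM. The values deposited as counts are whole numbers but rescaled, with some small whole numbers nearly missing in 13 of 66 libraries, so they were handled as scores and given no count model. The RPKM the authors deposited are these values times 1 factor per gene, within 0.98%. Per the submitters' processing notes, TopHat2 2.0.8, TopHat and mm9 were used, with no roles given. Which tool counted reads, and with which annotation and strand setting, is not stated in those sources. Sample titles gave each library its group and replicate number.

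The deposited values of each table were scaled by trimmed means of log ratios (30% of ratios and 5% of levels trimmed at each end), with factors from 0.921 to 1.089. A gene was kept where 3 or more libraries of the table reached 10. On log2(scaled value + 1), limma 3.58.1 (R 4.3.3) fitted 1 mean per time over all 33 libraries, with a variance trend. All tests are two-sided, p-values were adjusted by Benjamini-Hochberg over all genes, and calls need an adjusted p under 0.05. Values of single genes are scaled deposited values, ± is the standard error, and a log2 change on this scale understates low genes. The minimum of 50 was applied to deposited values before division by library sums. The code was tested on simulated data.

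The genes, lists, roles and comparisons were chosen with earlier results of these data known. Genes are named by rule: the 8 with the highest labelled intron values, the 8 with the lowest early ratios, up to 6 called genes per comparison with the smallest p, members of the mitosis list, and genes nearest each threshold. Named outside it, after their values were seen, were Nfyb, Col3a1, other mitosis genes and genes in counts of 5 or fewer. Positions and spans are from GENCODE M1 (NCBIM37, mm9), matched by symbol. Promoters are RefSeq, GRCm38.p6, 1 window per gene. Same-numbered libraries deviated together in every pair (correlations over 0.1) for labelled exons at 4 h against 1.5 h (0.11, 0.19 and 0.14) and total exons at 4 h against 0 min (0.18, 0.19 and 0.12), and not for the other comparisons. Alternatives were other scalings, RPKM, no filter, a replicate block, each library left out and other thresholds.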

Additional observations from a re-analysis of the deposited data

How the results depend on the processing

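The number of genes chosen was 169 with scaling by trimmed means, 120 with an early threshold of 0.6, 832 with 0.75 and 197 with a late threshold of 1, against 337 as reported, and 289 to 366 with 1 library left out. Of the counts of genes called, those in labelled introns at 4 h against 1.5 h (26 higher) fell to 17 without further scaling, those in total exons at 1 h against 0 min (52) kept within 1.5 times under every scaling, unit and filter tried, and those in total introns at 1 h against 30 min (37 lower, a comparison chosen after seeing the data) were 20 with scaling by column sums and 70 with no further scaling. With 1 library left out the counts of genes called were 105 to 118 lower in labelled introns at 1.5 h against 10 min, 15 to 21 higher in labelled introns and 1 to 6 higher and 0 to 8 lower in labelled exons at 4 h against 1.5 h, 56 to 78 lower in labelled exons at 1.5 h against 10 min, 141 to 192, 215 to 226 and 108 to 125 lower in total introns at 30 min, 1 h and 4 h against 0 min, 227 to 244 higher at 16 h against 1 h and 13 to 35 lower at 1 h against 30 min, and in total exons 26 to 46 lower at 1 h, 135 to 164 lower at 4 h and 81 to 92 higher at 16 h against 1 h. The lower genes in labelled exons at 4 h against 1.5 h (5) numbered 0 with no further scaling and on RPKM. With a replicate block the counts were 6 higher in labelled exons at 4 h against 1.5 h (4 without it) and 181 lower in total exons at 4 h against 0 min, the 2 comparisons in which numbers paired the libraries, and the block moved no count of calls in the other comparisons by over 1.5 times. Of the values of single named genes under an alternative, 633 kept their call, none changed direction and 51 were no longer called, in Smim20, Znrd1as, Slc27a3, Wdr76, Nfya, Cenpf, Ncapd2, Serpini1, Napb and Sbspon. The cause was not tested. Read depth is unknown, which limits what low values can show.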
